A study of Homo sapiens with 12 samples.

Results

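The genes described here are the 10 of polyamine synthesis, breakdown and antizyme control (ODC1, AMD1, SRM, SMS, OAZ1, OAZ2, AZIN1, SAT1, SMOX and PAOX), out of 62703 genes in the count table. They were taken by name from the GENCODE annotation, and ODC1 was chosen by its measured rise in the ratio of HP to total RNA in these same libraries, so every value of ODC1 is given as a description with no test. RNA-seq was performed on HCT116 cells, a human colorectal cancer line, transfected with 2 nM of hnRNP U siRNA or of control siRNA for 48 h. Total RNA and heavy polysomal (HP) RNA, the RNA that sediments with many ribosomes on a sucrose gradient, were each sequenced in 3 libraries per siRNA. The 4 conditions are therefore HP RNA with hnRNP U siRNA, HP RNA with control siRNA, total RNA with hnRNP U siRNA and total RNA with control siRNA. All of them come from a single cell line, and which of the hnRNP U siRNA sequences was used for the sequencing is not named. The question of the design was which mRNAs change in amount or in association with polysomes when hnRNP U, an RNA-binding protein, is depleted.

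Polyamines (putrescine, spermidine and spermine) are small cations that bind RNA and are needed for cell growth and translation, and their synthesis is raised in colorectal cancer. ODC1 makes putrescine from ornithine, AMD1 provides the aminopropyl donor from S-adenosylmethionine, SRM makes spermidine and SMS makes spermine. Antizymes (OAZ1, OAZ2) bind ornithine decarboxylase and send it to the proteasome, AZIN1 is a decarboxylase relative without activity that holds antizymes back, and SAT1, SMOX and PAOX acetylate or oxidise polyamines. Several of these mRNAs are regulated in translation by polyamines themselves, the best known being the antizymes, whose full-length protein is made only when ribosomes shift by 1 base at the end of a first reading frame.

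The shift sites of OAZ1 and OAZ2 are shown because antizyme output is set on the ribosome, which mRNA levels and polysome ratios do not read directly. In GRCh38 the window of OAZ1 lies at chr19:2271428-2271457 on the plus strand and that of OAZ2 at chr15:64691501-64691530 on the minus strand, both within coding exons. Capitals mark the shift site, a TCC codon, the TGA stop codon and the base after it, and the annotated coding sequence skips 1 T, the base at 2271443 in OAZ1 and at 64691515 in OAZ2.
OAZ1: cctcggtggtgcTCCTGATgcccctcaccc
OAZ2: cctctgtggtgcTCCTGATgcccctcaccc
The windows were identical at 29 of 30 bases, while the coding sequences of both genes were identical at 65.3% of 565 aligned bases. A gap of 1 base between neighbouring exons of the canonical transcript was annotated in 7 of 12759 tested coding genes, or 0.055%. Whether each of these gaps lies in the coding sequence was not checked. Over their coding sequences, 62.7% of bases were identical between ODC1 and AZIN1, 57.0% between SRM and SMS and 62.8% between SMOX and PAOX.

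HNRNPU itself had 78.2 ± 3.70 CPM in HP RNA with hnRNP U siRNA against 1080 ± 61.5 CPM with control siRNA, and 159 ± 9.46 CPM in total RNA with hnRNP U siRNA against 1027 ± 67.9 CPM with control siRNA (SD, n = 3 each). CPM express a gene's counts relative to the library total after scaling with TMM factors. Library totals ran from 30305012 to 39761103 counts, and no library was a copy of another. Of 8 epithelial markers, EPCAM, CDH1, KRT8, KRT18 and CDX2 were present (17.85 CPM or more in each library), KRT20 had 0.889 to 2.50 CPM, VIL1 at most 0.030 CPM and CDX1 0 counts. Their summed level was 5262 to 5680 CPM in HP RNA with hnRNP U siRNA, 5156 to 5388 CPM in HP RNA with control siRNA, 2881 to 3107 CPM in total RNA with hnRNP U siRNA and 3016 to 3196 CPM in total RNA with control siRNA. The 7 markers of white blood cells, fibroblasts and endothelium summed to 7.03 to 8.87, 14.5 to 16.7, 9.88 to 10.8 and 16.7 to 18.2 CPM in the same order, almost all of it COL1A1 (6.67 to 17.4 CPM), and PTPRC had at most 0.025 CPM. COL1A1 thus moved with the siRNA, and its part in the results was not tested.

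Of the 10 polyamine genes, 9 passed the filter on low counts and PAOX did not. PAOX, the peroxisomal oxidase of acetylated polyamines, had 8, 7 and 6 counts in HP RNA with hnRNP U siRNA and 7, 12 and 13 counts in HP RNA with control siRNA, and 7, 4 and 6 counts in total RNA with hnRNP U siRNA against 2, 3 and 9 counts in total RNA with control siRNA. These counts are too few for a comparison, and a gene model on the same strand shares up to 469 nt of exon with PAOX. The other 9 genes differed widely in level. Per kb of merged exons, ODC1 was highest in all 4 conditions, with 233.6 ± 9.73 CPM per kb in HP RNA with hnRNP U siRNA, 151.9 ± 13.7 in HP RNA with control siRNA, 240.1 ± 13.1 in total RNA with hnRNP U siRNA and 229.8 ± 6.41 in total RNA with control siRNA (SD, n = 3 each). Below it, in total RNA with either siRNA, came OAZ1, SRM, SMS, AZIN1, SAT1 and AMD1, and then SMOX above OAZ2 with hnRNP U siRNA and OAZ2 above SMOX with control siRNA. In HP RNA, SMS stood above OAZ1 and SRM, and AZIN1 followed. Neighbours in this order whose libraries overlapped were SMS and OAZ1 in HP RNA with hnRNP U siRNA, SMOX and SAT1 as well as SAT1 and AMD1 in HP RNA with control siRNA, and AZIN1 and SAT1 in total RNA with hnRNP U siRNA. The order rests on the length used. With the length of the canonical transcript, OAZ1 stood above ODC1 in total RNA (452.2 against 320.7 CPM per kb with hnRNP U siRNA and 531.9 against 306.9 with control siRNA) and in HP RNA with control siRNA (285.6 against 202.9), and below it only in HP RNA with hnRNP U siRNA (290.4 against 312).

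**Figure D1:**
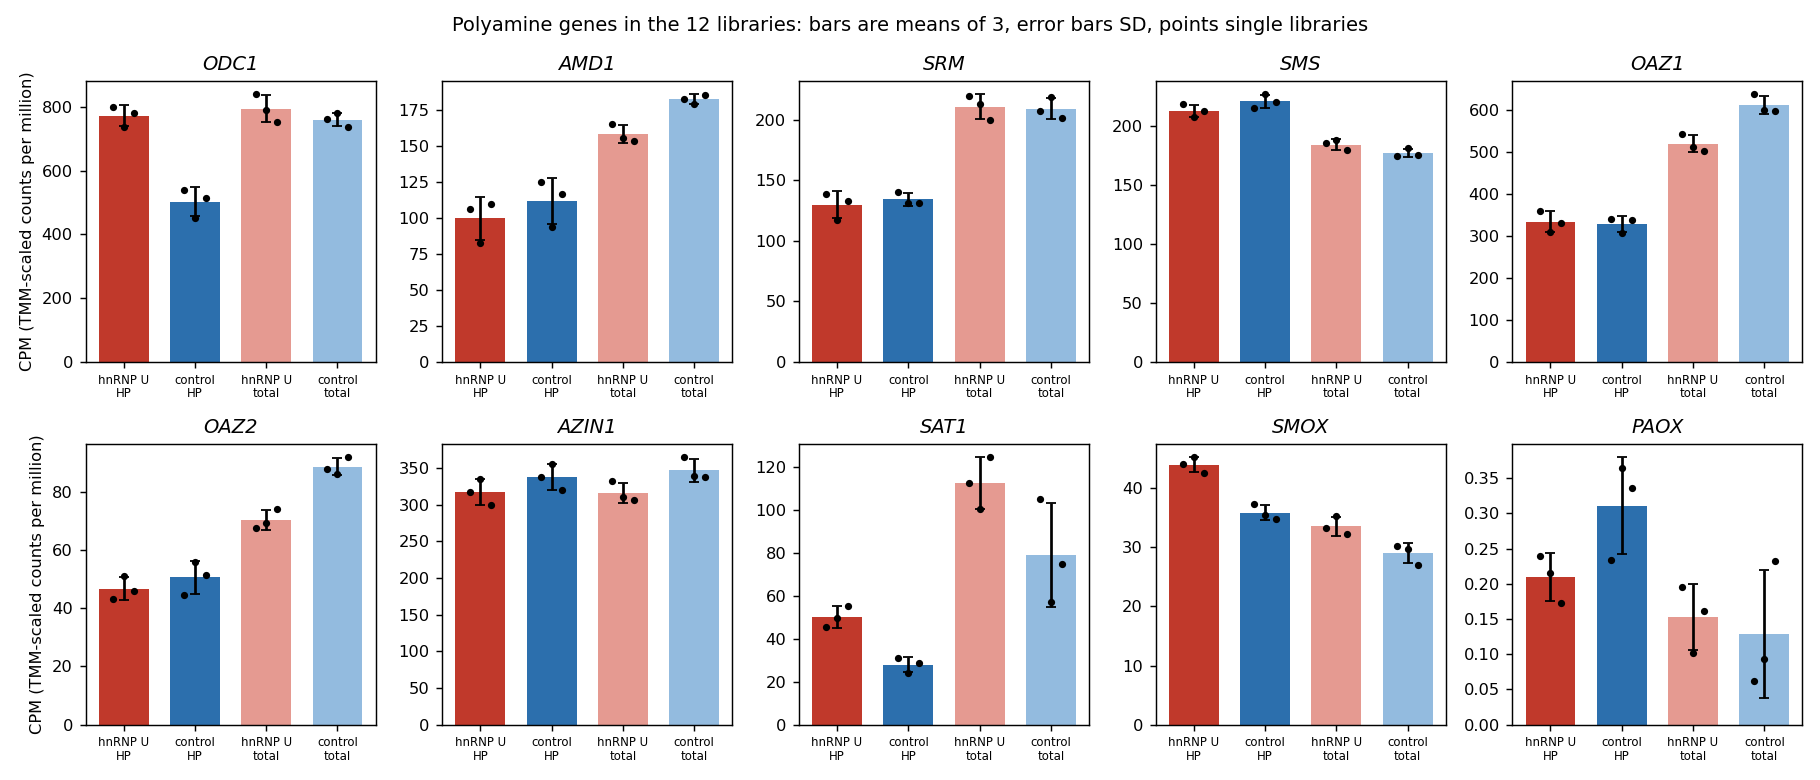
TMM-scaled CPM of the 10 polyamine genes in HP RNA and total RNA with hnRNP U siRNA or control siRNA, with bars for the mean of 3 libraries, error bars for the SD and points for single libraries, each panel on its own scale from 0. ODC1 is lower in HP RNA with control siRNA (452.5 to 540.7 CPM) than in the other 3 conditions, OAZ1, OAZ2 and AMD1 are lower with hnRNP U siRNA in total RNA, and PAOX stays under 0.4 CPM.

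ODC1, the rate-limiting enzyme of the pathway, had more HP RNA with hnRNP U siRNA and about the same total RNA. In HP RNA it had 800.1, 737.1 and 780 CPM with hnRNP U siRNA against 540.7, 452.5 and 513.8 CPM with control siRNA. In total RNA it had 839, 790.5 and 752.9 CPM with hnRNP U siRNA against 760.4, 780.7 and 738.3 CPM with control siRNA. All HP libraries with hnRNP U siRNA lay above all those with control siRNA, while the total RNA libraries overlapped. The fitted log2 fold changes were 0.59 (SE 0.06) in HP RNA and 0.06 (SE 0.05) in total RNA. The ratio of HP to total RNA between libraries of the same replicate number was 0.954, 0.932 and 1.04 with hnRNP U siRNA against 0.711, 0.580 and 0.696 with control siRNA, which gave a log2 fold change of HP/total of 0.56 (SE 0.08). It was this last value that chose the gene. In bulk RNA, fewer cells that hold an mRNA and less of it per cell cannot be told apart. Of the tested genes, 47.1% had a lower fitted ratio of HP to total RNA than ODC1 with hnRNP U siRNA and 22.2% with control siRNA, so the gene stood near the middle of all genes with the one and in the lower part with the other.

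OAZ1, the most abundant antizyme, had less total RNA with hnRNP U siRNA. It had 543, 512.1 and 502.3 CPM in total RNA with hnRNP U siRNA against 636, 600.1 and 595.8 CPM with control siRNA, with no overlap. The log2 fold change was −0.24 (SE 0.04, adjusted p = 1.9e-04, edgeR quasi-likelihood test, Benjamini-Hochberg over 15920 genes). In HP RNA it had 359.7, 309.6 and 330.9 CPM with hnRNP U siRNA against 339.3, 306 and 338.2 CPM with control siRNA, which overlapped (−0.01, SE 0.06, adjusted p = 0.90, edgeR). The second antizyme, OAZ2, had 67.51, 69.26 and 74.21 CPM in total RNA with hnRNP U siRNA against 87.87, 86.09 and 91.92 CPM with control siRNA, and again the groups were apart (−0.34, SE 0.05, adjusted p = 1.0e-05, edgeR). Its HP RNA overlapped, at 43.24, 50.94 and 45.95 CPM with hnRNP U siRNA against 44.62, 55.92 and 51.34 CPM with control siRNA (−0.15, SE 0.08, adjusted p = 0.12, edgeR). With the replicate number as a block, OAZ2 passed in HP RNA (adjusted p = 0.013, edgeR). The antizymes thus fell in total RNA, and in HP RNA neither passed without the block, with 95% confidence intervals of −0.14 to 0.12 for OAZ1 and −0.32 to 0.01 for OAZ2.

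AZIN1, the antizyme inhibitor, moved the same way in total RNA but by less. It had 332.2, 310.6 and 306.6 CPM with hnRNP U siRNA against 364.9, 339.1 and 337.2 CPM with control siRNA, apart by a small margin (−0.14, SE 0.04, adjusted p = 0.015, edgeR). The call was lost without replicate 1 of control siRNA (adjusted p = 0.053) and without replicate 2 or 3 of hnRNP U siRNA (0.084 and 0.087, all edgeR), and over all 13 alternatives it ranged from 0.0017 to 0.087. In HP RNA it had 317.8, 335 and 299.3 CPM with hnRNP U siRNA against 337.4, 355.4 and 319.8 CPM with control siRNA, which overlapped (−0.12, SE 0.06, adjusted p = 0.073, and 0.0091 with the replicate block, edgeR).

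Of the other genes of synthesis, AMD1 fell in total RNA, and SRM and SMS passed the test in neither kind of RNA. AMD1 had 165.4, 155.8 and 153.6 CPM in total RNA with hnRNP U siRNA against 183.3, 179.3 and 185.9 CPM with control siRNA, with no overlap (−0.21, SE 0.04, adjusted p = 3.4e-04, edgeR, and 0.0502 when all 12 libraries were fitted together, the highest of 13 alternatives that otherwise kept the call). In HP RNA it had 106.7, 82.72 and 110.2 CPM with hnRNP U siRNA against 125.4, 94.05 and 116.6 CPM with control siRNA, where replicate 2 was lowest with either siRNA and the groups overlapped (−0.20, SE 0.10, adjusted p = 0.10, and 2.5e-04 with the replicate block, edgeR). AMD1 is the decarboxylase whose product both synthases use. SRM, the spermidine synthase, had 220, 213 and 199.9 CPM in total RNA with hnRNP U siRNA against 207.4, 219.3 and 201.7 CPM with control siRNA (0.01, 95% confidence interval −0.09 to 0.10). In HP RNA it had 139, 117.6 and 133.4 CPM with hnRNP U siRNA against 140.8, 131.3 and 131.3 CPM with control siRNA (−0.08, interval −0.22 to 0.05). SMS, the spermine synthase, had 185.2, 187.6 and 179.1 CPM in total RNA with hnRNP U siRNA against 174.3, 180.9 and 174.9 CPM with control siRNA (0.05, interval −0.03 to 0.14). Both synthases overlapped between siRNAs. The HP RNA of SMS also overlapped, at 217.9, 207.4 and 212.1 CPM with hnRNP U siRNA against 215.2, 226.4 and 220 CPM with control siRNA (−0.09, interval −0.19 to 0.02).

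SAT1 and SMOX, which act in polyamine breakdown, rose in both kinds of RNA. SAT1, the acetyltransferase that starts polyamine breakdown and export, had 45.55, 49.8 and 55.46 CPM in HP RNA with hnRNP U siRNA against 31.01, 23.92 and 28.92 CPM with control siRNA, well apart (0.81, SE 0.09, adjusted p = 7.0e-07, edgeR). In total RNA it had 112.5, 100.7 and 124.8 CPM with hnRNP U siRNA against 105.4, 57.28 and 74.75 CPM with control siRNA. Replicate 1 of control siRNA lay among the libraries with hnRNP U siRNA, so the groups overlapped. The log2 fold change in total RNA was 0.51 (SE 0.14, adjusted p = 0.0046, edgeR). DESeq2 gave it an adjusted p of 0.10, against 2.9e-24 to 0.027 in the other 12 alternatives, and the fold change was 0.76 without replicate 1 and 0.32 without replicate 2 of control siRNA. SMOX, the spermine oxidase, had 44.08, 45.24 and 42.64 CPM in HP RNA with hnRNP U siRNA against 37.31, 35.55 and 34.75 CPM with control siRNA (0.26, SE 0.06, adjusted p = 0.0021, edgeR). In total RNA it had 33.24, 35.26 and 32.19 CPM with hnRNP U siRNA against 30.27, 29.81 and 27.07 CPM with control siRNA (0.21, SE 0.06, adjusted p = 0.0046, edgeR). SMOX was apart in both comparisons. SAT2, of the further genes below, is also listed under breakdown. It passed in neither kind of RNA (−0.04 in HP RNA and −0.06 in total RNA, adjusted p = 0.70 and 0.51, edgeR).

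Counted without ODC1, 2 of 8 genes rose and 4 fell in total RNA, with a median log2 fold change of −0.066. Among all 15920 tested genes 57.3% passed the same threshold, 28% higher and 29.3% lower, with a median of 0. In HP RNA, 2 of the 8 rose, none fell in the edgeR test and the median was −0.086, against 51.7% of all genes called (25.5% higher, 26.3% lower) and a median of 0.007. At an unadjusted p under 0.05 the number in HP RNA was 3 of 8, and DESeq2 called the same number as edgeR. With the replicate block 5 of the 8 passed in HP RNA, 2 higher and AMD1, OAZ2 and AZIN1 lower, against 58.7% of all genes. It was 4 of 8, with OAZ2 and AZIN1 lower, when replicate 2 of HP RNA with hnRNP U siRNA was left out. Libraries of the 2 siRNAs did not overlap for 5 of 8 genes in total RNA and 2 of 8 in HP RNA, ODC1 left out, against 62% and 58.3% of all tested genes.

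**Figure D2:**
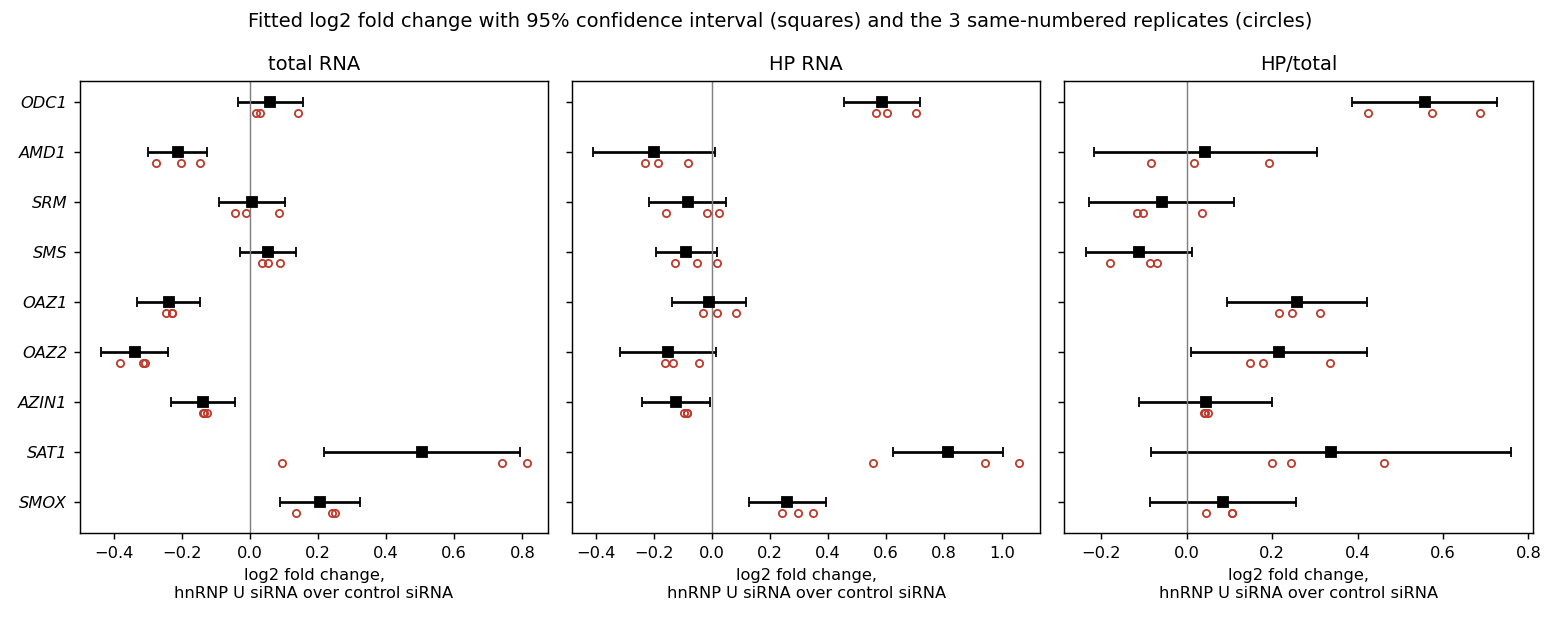
Fitted log2 fold change of hnRNP U siRNA over control siRNA with its 95% confidence interval (squares) and the differences of same-numbered replicates (circles) for 9 genes, with total RNA left, HP RNA in the middle and HP/total right. In HP/total ODC1, the gene chosen for this value, lies at 0.56, OAZ1 at 0.26 and OAZ2 at 0.22, and SAT1 has the widest interval.

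In HP/total, the change of the polysome ratio with hnRNP U siRNA, none of the 8 genes other than ODC1 passed the edgeR test or DESeq2, and 2 of them had an unadjusted p under 0.05. Of all tested genes 0.163% passed, 13 higher (0.0817%) and 13 lower (0.0817%), or 11 higher and 17 lower with DESeq2's size factors and 10 higher and 16 lower with upper-quartile factors. The median of the 8 was 0.065 and that of all genes 0.036. The ratio of OAZ1 by replicate was 0.662, 0.605 and 0.659 with hnRNP U siRNA against 0.533, 0.510 and 0.568 with control siRNA. Its ratios were apart, with a log2 fold change of HP/total of 0.26 (interval 0.09 to 0.42, unadjusted p = 0.0036, adjusted p = 0.37, edgeR). OAZ1 passed with the replicate block (adjusted p = 0.028) and with siRNA and replicate number together as a block (adjusted p = 0.013, both edgeR), as 1 of 8 genes each time, against 0.49% and 0.879% of all genes. OAZ2 had 0.641, 0.735 and 0.619 with hnRNP U siRNA against 0.508, 0.650 and 0.559 with control siRNA (0.22, interval 0.01 to 0.42, adjusted p = 0.66, edgeR), where replicate 2 was highest with either siRNA. SAT1 had 0.405, 0.495 and 0.444 with hnRNP U siRNA against 0.294, 0.418 and 0.387 with control siRNA (0.34, interval −0.08 to 0.76, adjusted p = 0.79, edgeR). The ratios of OAZ2 and of SAT1 overlapped between siRNAs. SMS had 1.18, 1.11 and 1.18 with hnRNP U siRNA against 1.23, 1.25 and 1.26 with control siRNA, the only gene of the 9 whose ratios lay wholly below those with control siRNA (−0.11, interval −0.24 to 0.01, adjusted p = 0.76, edgeR). The ratios of AMD1, SRM, AZIN1 and SMOX overlapped, with log2 fold changes of −0.06 (SRM) to 0.08 (SMOX). Ratios did not overlap for 2 of 8 genes, ODC1 left out, against 19% of all genes with a ratio in every replicate.

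**Figure D3:**
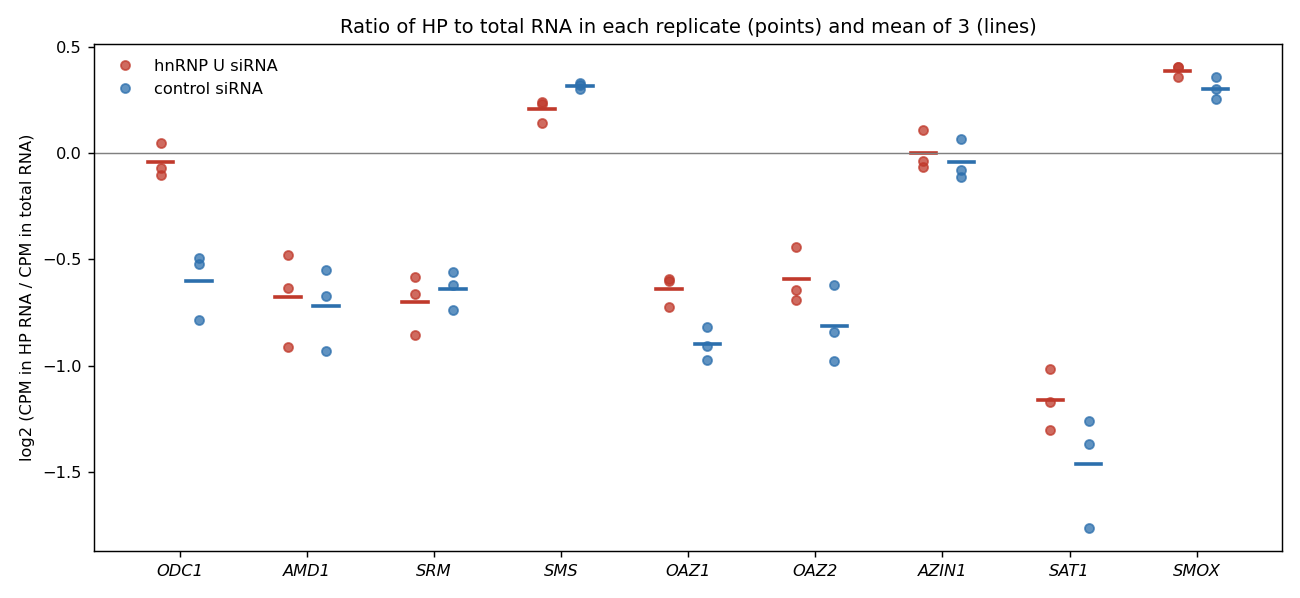
Log2 ratio of CPM in HP RNA to CPM in total RNA for each replicate (points) and the mean of 3 (lines) with hnRNP U siRNA or control siRNA, for 9 polyamine genes. ODC1 and OAZ1 with hnRNP U siRNA lie above all values with control siRNA, SMS lies below, SAT1 is lowest with either siRNA and SMS and SMOX lie above 0.

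HP RNA was also compared with total RNA within each siRNA. SMS and SMOX were enriched in HP RNA, with log2 ratios of 0.18 and 0.37 with hnRNP U siRNA and of 0.32 and 0.30 with control siRNA. The log2 ratio of SAT1 was −1.19 with hnRNP U siRNA (adjusted p = 5.3e-11) and −1.50 with control siRNA (adjusted p = 1.1e-06, both edgeR). Only 7.7% of tested genes had a lower ratio with hnRNP U siRNA and 4.8% with control siRNA. OAZ1 had −0.66 with hnRNP U siRNA and −0.90 with control siRNA, OAZ2 −0.61 and −0.81, AMD1 −0.69 and −0.71, and SRM −0.72 and −0.64 in the same order. All of these passed the test with either siRNA. AZIN1 did not, at −0.02 with hnRNP U siRNA and −0.04 with control siRNA. ODC1 had −0.06 with hnRNP U siRNA and −0.60 with control siRNA. Without ODC1, 2 of 8 genes were higher and 5 lower in HP RNA with hnRNP U siRNA, and again 2 and 5 with control siRNA, against 68.1% (34.4% higher, 33.7% lower) and 65.1% (33.1% higher, 32% lower) of all genes. Groups did not overlap for 7 of these 8 genes with either siRNA, against 70.5% and 68.2% of all genes. The medians of the 8 were −0.64 with hnRNP U siRNA and −0.67 with control siRNA, against −0.02 and −0.025 for all genes. Upper-quartile factors moved the median of all genes to −0.11 with either siRNA. With them AZIN1, at −0.11 with hnRNP U siRNA and −0.13 with control siRNA, passed the test (adjusted p = 0.042 and 0.048, edgeR), and SMS with hnRNP U siRNA had 0.10, still past it. Each library is scaled to its own total, so a ratio here is relative to other mRNAs and not an amount per cell.

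Shorter coding sequences can hold fewer ribosomes, so the ratios were set beside the coding length of the canonical transcript. The median log2 ratio of tested coding genes did not rise steadily with length. With hnRNP U siRNA it was −0.03 under 250 codons, 0.235 from 250 to 500, 0.106 from 500 to 1000 and −0.161 from 1000. With control siRNA it was −0.044, 0.234, 0.107 and −0.152 in the same order. The lengths of OAZ1 and OAZ2 include the codons read only after the shift. SAT1 (171 codons), OAZ2 (189 codons) and OAZ1 (228 codons) are among the shortest, and their ratios lay below the lower quartile of tested coding genes under 250 codons (−0.57 with hnRNP U siRNA and −0.60 with control siRNA). SRM (302 codons) and AMD1 (334 codons) lay below the lower quartile of their own class of 250 to 500 codons (−0.18 with hnRNP U siRNA and −0.20 with control siRNA). SMS (366 codons) and AZIN1 (448 codons) lay between the quartiles of that class. ODC1 (461 codons) lay between them with hnRNP U siRNA and below the lower one with control siRNA. SMOX, the longest tested at 555 codons, lay slightly above the upper quartile of its class with hnRNP U siRNA (0.37 against 0.36) and within the quartiles with control siRNA.

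**Figure D4:**
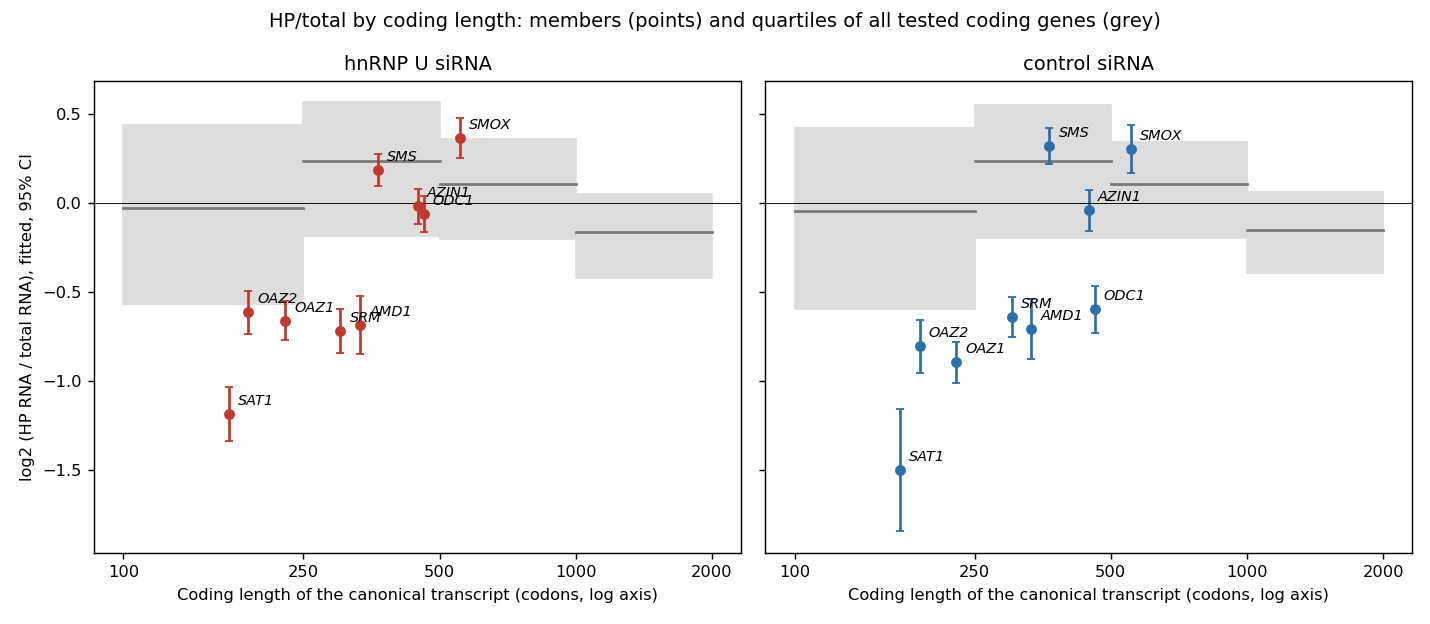
Fitted log2 ratio of HP RNA to total RNA with its 95% confidence interval for 9 polyamine genes (points) against coding length in codons (log axis), with hnRNP U siRNA left and control siRNA right, and the quartiles and median of all tested coding genes in 4 length classes in grey. SAT1, OAZ1, OAZ2, SRM and AMD1 lie below the grey band in both panels, ODC1 only with control siRNA.

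The RG4 motif, in which 4 runs of 3 or more G are joined by loops between 1 and 7 nt long and can fold into an RNA G-quadruplex, was sought because hnRNP U is studied as a protein that binds such structures. Of the canonical transcripts of the 10 genes only that of OAZ2 held it, both times in the 3′ UTR, against 26.7% of tested coding genes. Capitals mark runs of G, and the sites lie on the minus strand of GRCh38 at chr15:64688372-64688398 (site 1) and chr15:64687622-64687647 (site 2).
OAZ2 site 1: GGGGGaGGGactgtctGGGttcaGGGG
OAZ2 site 2: GGGtgaGGGGGacGGGGatgtcaGGG
When any annotated transcript counted, SRM, SMS, OAZ1, OAZ2 and SMOX held it, against 44.6% of genes. ODC1, with 6 annotated transcripts, held none.

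Matches of 7 nt to the seeds (bases 2 to 8) of both strands of the siRNAs listed by the study were found in the 3′ UTRs of 4 of the 10 genes, against 36.1% of 12730 genes that held any of the 6 matches. SAT1 held the match to the antisense strand of hnRNP U siRNA 2 (13.1% of genes) and AZIN1 that to the antisense strand of hnRNP U siRNA 1 (7.31% of genes). AMD1 held the match to the antisense strand of the control siRNA (15.2% of genes) and SRM that to its sense strand (2.15% of genes). ODC1, OAZ1 and OAZ2 held none of the 6. The sites of SAT1, AMD1 and SRM are shown as examples of these matches and that of AZIN1 is named only. The match is in capitals, at chrX:23785931-23785937 on the plus strand, chr6:110894291-110894297 on the plus strand and chr1:11054780-11054786 on the minus strand of GRCh38.
SAT1: ttctatgctgtTTGTAGTgaaataataga
AMD1: tcccccaagacCCCAAATaaagcaataca
SRM: tccagccccggGCCGGACctcctgctggc
SAT1 was higher with hnRNP U siRNA in HP RNA and total RNA, AZIN1 and AMD1 were lower in total RNA, and SRM passed in neither. The part of these matches in any change was not tested.

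The E-box CACGTG (the same on both strands), the sequence to which MYC and MAX bind as a pair, was sought from 250 bases before to 50 bases after the starts that RefSeq lists (GRCh38.p14). ODC1 and SRM are textbook MYC targets, and both promoters held it, ODC1 with 2 matches at 1 of its 2 listed starts. AMD1, SMS, OAZ1, OAZ2 and SAT1 held none, AZIN1, SMOX and PAOX were not analysed here, and 7.26% of 35116 promoters held it. Counted from the start, the motif lies at −29 in ODC1 (window chr2:10448024-10448053, minus strand) and at −199 in SRM (window chr1:11060200-11060229, minus strand), with capitals for the E-box.
ODC1: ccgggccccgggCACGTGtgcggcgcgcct
SRM: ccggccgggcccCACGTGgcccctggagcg
MYC had 606.6, 569.8 and 577.5 CPM in HP RNA with hnRNP U siRNA against 400, 337.2 and 361.6 CPM with control siRNA, and 464.4, 428.7 and 447.9 CPM in total RNA with hnRNP U siRNA against 301.9, 263.7 and 298.5 CPM with control siRNA. MYC rose by a log2 fold change of 0.64 in HP RNA (adjusted p = 9.7e-08) and 0.63 in total RNA (adjusted p = 2.6e-08, both edgeR). ODC1 and SRM had log2 fold changes of 0.06 and 0.01 in total RNA. The part of MYC in the level of either gene was not tested.

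Within a library, the ratio of ODC1 to OAZ1 counts does not depend on scaling. It was 2.32 ± 0.084 in HP RNA with hnRNP U siRNA and 1.53 ± 0.058 in HP RNA with control siRNA, and 1.53 ± 0.026 in total RNA with hnRNP U siRNA and 1.25 ± 0.053 in total RNA with control siRNA (SD, n = 3 each). In total RNA the higher ratio with hnRNP U siRNA came with a lower CPM of OAZ1, and in HP RNA with a higher CPM of ODC1. The count ratios of ODC1 to OAZ2 in HP RNA were 18.5, 14.5 and 17.0 with hnRNP U siRNA. With control siRNA they were 12.1, 8.09 and 10.0. In total RNA they were 12.4, 11.4 and 10.2 with hnRNP U siRNA against 8.65, 9.07 and 8.03 with control siRNA. These ratios did not overlap between siRNAs in HP RNA or in total RNA. ODC1 was chosen for its rise in HP over total RNA, so the gap in HP RNA follows in part from that choice. It is given as a description, and how often such ratios are apart among all genes was not tested.

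By the mean absolute difference of centred log2 CPM over the 12 libraries, the genes most like ODC1 were BAG1 (0.086), FNBP4 (0.088), BABAM1 (0.091), the lncRNA MNX1-AS1 (0.091) and C17orf58 (0.094), against a median of 0.385 over all tested genes. BAG1, a co-chaperone of HSP70 proteins, had 41.4 CPM in HP RNA with hnRNP U siRNA and 31.8 CPM with control siRNA, and 48.5 and 45.2 CPM in total RNA in the same order. Of the polyamine genes, SRM (0.256), AZIN1 (0.257) and OAZ1 (0.262) were nearest to ODC1 and SAT1 (0.531) was farthest.

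Of 28 further genes of polyamine supply, transport, use and control, 24 were tested (ARG1, OTC, AGMAT and AOC1 were too low). In HP RNA 14 rose and 4 fell, with a median log2 fold change of 0.17, and in total RNA 13 rose and 3 fell, with a median of 0.185. These are 18 of 24 in HP RNA and 16 of 24 in total RNA, set against 51.7% and 57.3% of all genes. None passed in HP/total with edgeR or DESeq2 (2 at an unadjusted p under 0.05), and the median was 0.009. The 4 tested genes listed under arginine and ornithine supply rose in both kinds of RNA. OAT, the ornithine aminotransferase, had 409 ± 16.0 CPM in HP RNA with hnRNP U siRNA against 272 ± 9.78 CPM with control siRNA (SD, n = 3 each), a log2 fold change of 0.56, and 0.53 in total RNA. The mitochondrial arginase ARG2, which makes ornithine, rose by 0.32 in HP RNA and 0.43 in total RNA, and SLC7A1, the carrier of arginine and ornithine into the cell, by 0.38 and 0.41. MAT2B, the regulatory subunit of the enzyme that makes S-adenosylmethionine, had 190 ± 5.95 CPM in HP RNA with hnRNP U siRNA against 109 ± 8.19 CPM with control siRNA (SD, n = 3 each), a log2 fold change of 0.77, and 0.82 in total RNA. ADI1, of the methionine salvage that recycles the by-product of both synthases, rose by 0.56 in HP RNA and 0.72 in total RNA. MTAP, the first step of that salvage, fell by 0.15 in total RNA. EIF5A2, a form of the translation factor that carries hypusine made from spermidine, fell by 0.30 in HP RNA and 0.19 in total RNA. EIF5A, the other form, rose by 0.16 in HP RNA and 0.15 in total RNA. In HP RNA with hnRNP U siRNA EIF5A had 1659 CPM and EIF5A2 18.2 CPM. DOHH, also listed under hypusine, rose by 0.29 in HP RNA and 0.19 in total RNA, and DHPS passed in neither. ATP13A2, a lysosomal polyamine exporter, fell by 0.23 in HP RNA and 0.21 in total RNA. Of the other genes listed under transport, ATP13A3 rose by 0.20 in HP RNA and 0.26 in total RNA, and SLC18B1 passed in neither. In HP RNA alone the test was also passed by MAT1A (−0.77, at 0.992 ± 0.071 CPM with hnRNP U siRNA against 1.66 ± 0.352 CPM with control siRNA; SD, n = 3 each) and AZIN2 (−0.39), whose values in total RNA were −0.15 and −0.15. ENOPH1, listed under methionine salvage, passed in HP RNA alone as well, but rose. Its log2 fold change was 0.15 in HP RNA (adjusted p = 0.017, edgeR) and 0.02 in total RNA. Whether MAT1A, AZIN2 and ENOPH1 differ between HP and total RNA was tested only as HP/total, which they did not pass.

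**Figure D5:**
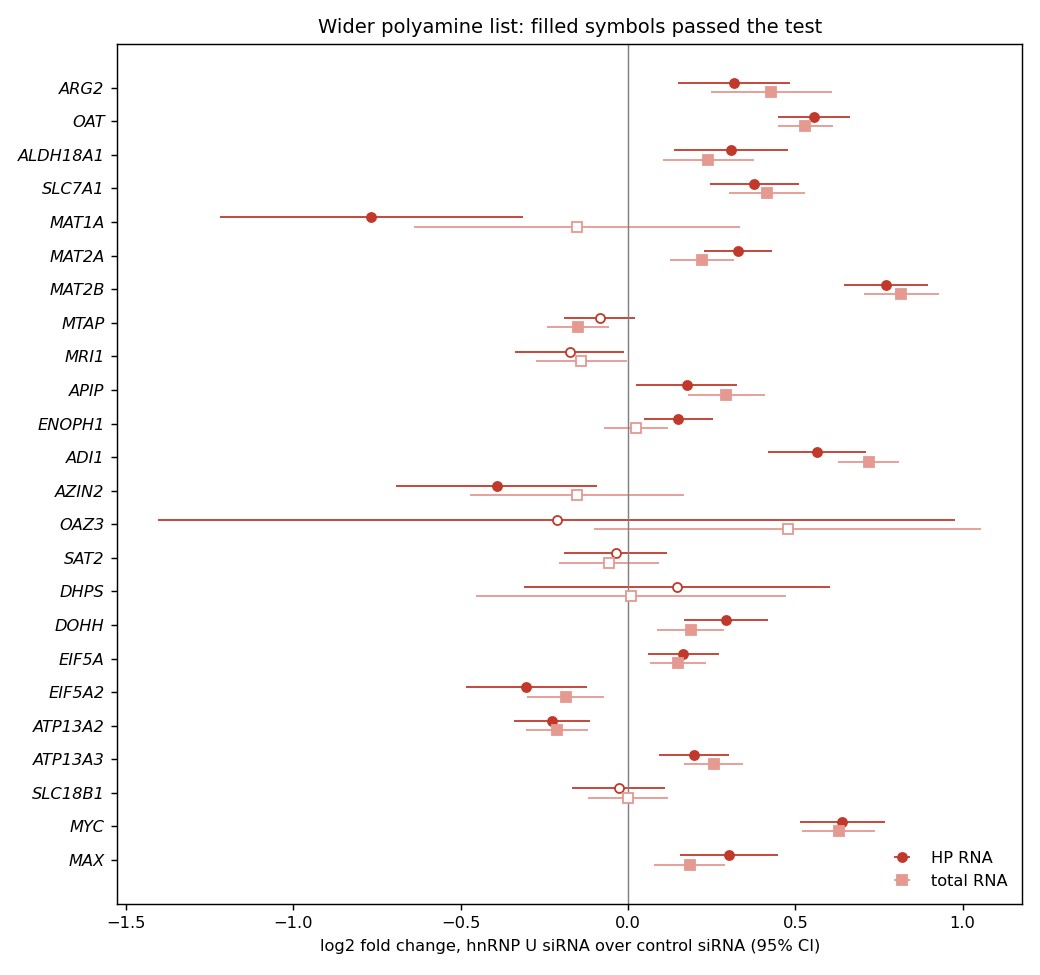
Log2 fold change of hnRNP U siRNA over control siRNA with its 95% confidence interval in HP RNA (circles) and total RNA (squares) for the 24 tested genes around the polyamine pathway, filled where the edgeR test was passed. MAT2B, ADI1, MYC and OAT lie farthest to the right in total RNA, from 0.53 to 0.82, and MAT1A lies at −0.77 in HP RNA.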

How the data were processed

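Directional libraries of poly(A) RNA were sequenced as single reads of 75 bp, which the authors trimmed with Trim Galore and aligned to hg38 with STAR, and the deposited table holds their raw counts for the genes of GENCODE release 43, with no normalization. The strand setting of the counting is not given in the sources used here, so antisense overlaps (OAZ1, OAZ2) could not be separated. Gene models on the same strand share up to 220 nt of exon with OAZ1, 105 nt with AZIN1 and 90 nt with SAT1. Each of these models had 0 counts over the 12 libraries, and the effect of shared exons on the counts was not tested. GENCODE release 44 (GRCh38) gave names and coordinates for 62639 of 62703 identifiers. With edgeR 4.0.16 in R 4.3.3, genes were filtered by filterByExpr (minimum count 10, 15920 kept), scaled by TMM within the libraries of each fit and tested by the quasi-likelihood F-test (Benjamini-Hochberg, threshold 0.05). Each comparison used its 6 libraries, while HP/total used all 12, as the term for siRNA times fraction. CPM per library used TMM over all 12. Fits were tested on simulated data.

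The members and lists were chosen with earlier results of these data known. Named were HNRNPU, the 10 members, the 5 genes most like ODC1 and, of the 28 further genes, the 6 largest called changes each way. SAT2, EIF5A, DOHH, DHPS, ATP13A3 and SLC18B1 were named beside genes of the same role, and ENOPH1 because it passed in HP RNA alone. Alternatives were DESeq2 1.42.0, edgeR with the size factors of DESeq2 or with upper-quartile factors, a minimum count of 50 or no filter, 12 libraries in 1 fit, a block for the replicate number or for siRNA and replicate number together, leaving out each library and, chosen after seeing the data, canonical transcript length. Identities were computed on coding sequences in place of proteins. Promoters came from RefSeq (GRCh38.p14), where 7 of 10 members matched. Per the study, the 3 replicates are independent experiments, and library titles share a code between the 4 conditions of each replicate number, so the numbers were taken to pair libraries. Deviations of same-numbered libraries from their group means correlated at −0.004 to 0.134, and each library of HP RNA but only 2 of 3 of total RNA correlated best with its own number. The replicate block is given beside a result where it changed a call. Reads were counted without molecular identifiers, so they are not independent molecules.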

Additional observations from a re-analysis of the deposited data

Results flagged for a closer look

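The siRNA effect on ODC1 differed between HP RNA and total RNA, with a log2 fold change of HP/total of 0.56, the difference between 0.59 in HP RNA and 0.06 in total RNA apart from scaling. ODC1 was chosen for this value, so the value is a description.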

How the results depend on the processing

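ODC1, chosen by its values, is left out of these counts. No log2 fold change of the other polyamine genes that passed its test turned its sign under any alternative run. Of 568 log2 fold changes recomputed for them, 529 kept their direction and side of the threshold, 14 passed it newly, 5 no longer passed, and 20 that passed neither before nor after changed sign. With no filter these were SRM in total RNA (−0.0021) and AMD1 (−0.0192) and AZIN1 (−0.0194) in HP/total. OAZ1 in HP RNA gave 0.005 with upper-quartile factors and 0.0244 with 12 libraries in 1 fit, in which AZIN1 in HP against total RNA with hnRNP U siRNA gave 0.0038. When single libraries were left out, SRM in total RNA ranged from −0.0207 to 0.0477 and OAZ1 in HP RNA from −0.0675 to 0.042. In HP/total the ranges were −0.0671 to 0.1307 (AMD1), −0.0702 to 0.0848 (AZIN1) and −0.0098 to 0.1346 (SMOX), and in HP against total RNA those of AZIN1 were −0.0522 to 0.0338 with hnRNP U siRNA and −0.0792 to 0.0014 with control siRNA.

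In HP RNA 2 of the 8 genes passed, against 5 with the replicate block and 2 to 4 when single libraries were left out. In HP/total 0 passed, against 1 (OAZ1) with the replicate block and with siRNA and replicate number together as a block, and 0 whenever a library was left out. The block changed no other call of these genes. The number of all genes called in HP/total was 13 higher and 13 lower, against 17 and 32 with DESeq2, 23 and 38 with no filter, 48 and 30 with the replicate block and 97 and 43 with the block of siRNA and replicate number, and the cause was not tested. AMD1 in HP RNA also passed with no filter (adjusted p = 0.0036, edgeR). PAOX was limited by depth, at 2 to 13 counts a library.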
